A study of Rattus norvegicus with 8 samples.

Results

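The genes described here are the nuclear-encoded genes whose products are annotated to the mitochondrial matrix or the mitochondrial inner membrane, in RNA-seq of rat nucleus pulposus cells, which fill the soft centre of the spinal disc. Of 4226 genes in the table, 45 carried a GO description naming the mitochondrial matrix or inner membrane. Left out were 5 solute carriers, 1 gene of mitochondrial DNA and 1 structural ribosomal locus. Dhodh, whose GO terms in the table name the mitochondrion without a compartment, was added by name. Other mitochondrial genes without either term were not added, and this choice was made with earlier results of these data known. This left 39 members, of which 19 had a matrix term, 21 had an inner membrane term and 2 had both. Members with protein-coding biotype numbered 34. The other 5 were listed as long noncoding RNAs without a symbol, although they carried protein function terms.

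In every library SOD1, the copper-zinc superoxide dismutase of the cytosol, had first been knocked down, and the cells were kept in 10 mM lactate for 7 days, per the series design text. One group of 4 libraries received wild-type SOD1 (SOD1-WT) and the other group of 4 received SOD1 with the K123R substitution, lysine to arginine (SOD1-K123R). The table heads these columns Ctrl and L, and the labels do not say what L abbreviates, so an effect of lactate itself and of the substitution cannot be told apart if the letter stands for lactate. No untransfected cells were analysed here, and the level of SOD1 was not analysed here. Whether the 4 libraries of a group came from separate cultures is not stated, and p-values then cover only the spread between libraries, which may be technical.

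Most proteins of the mitochondrial matrix and inner membrane are encoded in the nucleus, made in the cytosol and imported through translocases of the outer and inner membranes. They copy and transcribe mitochondrial DNA, translate its mRNAs, assemble the respiratory chain, and carry out steps of pyrimidine, heme, coenzyme Q, ketone and amino acid metabolism. Nucleus pulposus cells live with few blood vessels and rely largely on glycolysis.

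In SOD1-K123R cells most of these genes were lower. Of 34 members with a mean of at least 1 TPM (a transcript abundance measure scaled for transcript length and library size), 27 fell and 7 rose at a Benjamini-Hochberg adjusted p under 0.05 in limma over all 2890 genes tested. Across all genes tested, 51.1% fell and 44.6% rose. The median log2 fold change of log2(TPM + 1) was -1.21 for the tested members and -0.49 for all genes tested. Among the members 21 fell at least 2-fold on the log2(TPM + 1) scale, against 35.8% of all genes tested. This count depended on the pseudocount (the 1 added to TPM) and on the scaling. With a pseudocount of 0.1 it was 25 (43.9% of all genes). It was 15 after quantile normalization (27.8% of all genes) and 8 after median-of-ratios scaling (18.0%). Of all genes tested, 1036 were lower and 751 higher by that margin without further scaling, against 520 lower and 1136 higher with median-of-ratios scaling. All 5 members of respiratory assembly and coenzyme Q, all 5 of protein import, processing and fission, and all 3 of nucleotide metabolism fell. Roles of Tyms, Tmem177, Dnajc30 and Tomm40 were assigned after the values were seen, and Mtfp1 came from the list of apoptosis and quality control. The uniform direction of these groups therefore only describes the grouping chosen. The largest increase belonged to Rsad2, an interferon-induced antiviral protein that is not known mainly as a mitochondrial one. Rsad2 passed the filter only through SOD1-K123R, the group where it was high.

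Nearly every gene of the table passed the test (95.7%), and genes near a fold of 1 were scarce in it: 8.44% of genes tested had an absolute log2 fold change under 0.5. The table held only part of the transcriptome, and the sources used here do not say how its rows were chosen. The members' counts therefore describe these rows. The filter also favours a member that is high in 1 group. With no filter on low values, 29 of the 39 members passed as lower and 9 as higher, against 48.6% and 40.8% of 4226 genes. The groups had no shared range of values for 27 tested members that fell and 6 that rose, where 48.8% and 42.6% of all genes tested had groups that did not overlap in these directions (91.4% in either).

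Summed over the 39 members, SOD1-WT libraries held 833 ± 11.8 TPM and SOD1-K123R libraries 401 ± 8.54 TPM (mean ± SD, n = 4 each; the form is kept below). The lowest SOD1-WT library read 816 TPM and the highest SOD1-K123R library 413 TPM, so the sums did not overlap. Ak3, Rexo2, Tomm40, Ccnb1 and Timm22 made up 66.6% of the sum in SOD1-WT and 45.0% in SOD1-K123R. Without these 5 genes the sum was 278 TPM in SOD1-WT and 220 TPM in SOD1-K123R. TPM are shares of a library, and in bulk samples fewer cells of a type and less RNA per cell cannot be told apart.

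**Figure D1:**
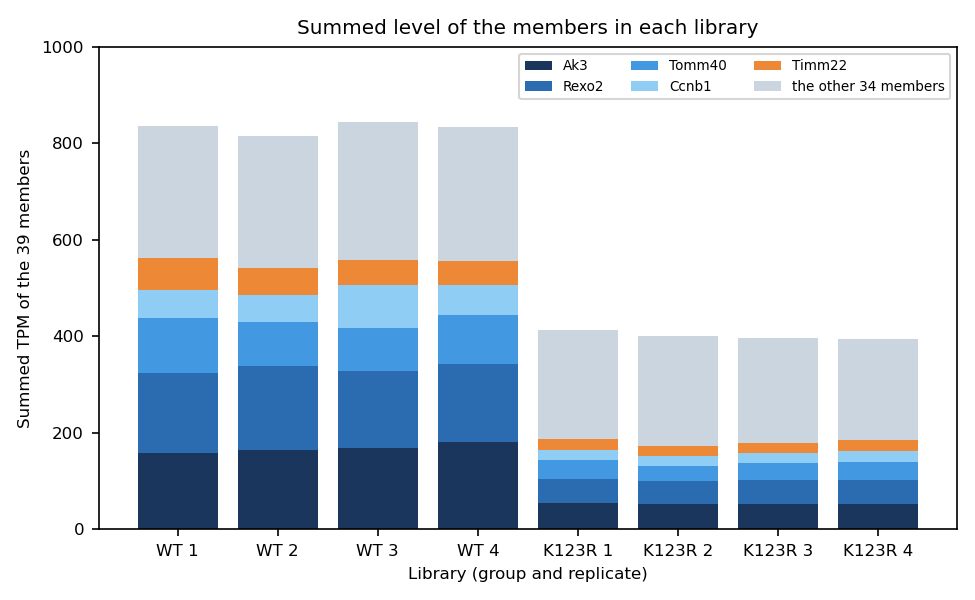
Summed TPM of the 39 members in each of the 8 libraries, with the 5 most abundant members in colour and the other 34 in grey. The SOD1-WT bars end between 816 and 844 TPM and the SOD1-K123R bars between 394 and 413 TPM.

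On the log2(TPM + 1) scale, nucleotide metabolism held the members with the largest decreases, Dhodh and Tyms. With a pseudocount of 0.1 Tmem177, a gene of low level, passed them (-2.79, against -2.55 for Dhodh). Dhodh encodes dihydroorotate dehydrogenase, the inner-membrane enzyme of pyrimidine synthesis that passes electrons to coenzyme Q. It read 21.3, 18.1, 17.5 and 26.0 TPM in the SOD1-WT libraries and 4.07, 3.10, 4.47 and 2.36 TPM in the SOD1-K123R libraries. Every SOD1-K123R library lay below every SOD1-WT library, and the log2 fold change was -2.28 (SE 0.17, adjusted p = 7.21e-08, limma). Tyms, the thymidylate synthase that serves DNA synthesis and carries both terms, fell from 24.3 ± 4.39 to 5.29 ± 0.828 TPM. Ak3, a matrix adenylate kinase that uses GTP, was the most abundant member in SOD1-WT. It read 158, 163, 168 and 181 TPM there and 51.0 to 54.6 TPM in the SOD1-K123R libraries. The gap between the groups of Ak3 was far wider than the spread within either (log2 fold change -1.65, SE 0.08).

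Members that act on mitochondrial DNA and RNA split between named genes and unnamed loci. Rexo2, an exonuclease that clears very short RNAs in mitochondria, had the smallest adjusted p of the members (8.49e-10, limma). Its SOD1-WT libraries read 166, 175, 159 and 161 TPM and its SOD1-K123R libraries 49.7, 48.4, 50.2 and 50.1 TPM. The 4 SOD1-K123R values of Rexo2 were almost equal (coefficient of variation 1.75%), and the log2 fold change was -1.72. Ptcd3, a pentatricopeptide protein of mitochondrial translation, fell from 14.3 ± 3.12 to 5.83 ± 0.978 TPM. Cdk5rap1, which modifies mitochondrial tRNAs, fell from 7.56 ± 0.837 to 2.45 ± 0.683 TPM. Primpol, a primase-polymerase that restarts stalled replication forks, fell by 0.81 on the log2 scale from a low level (3.08 ± 0.983 TPM).

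The pair of unnamed loci with a GO term for termination of mitochondrial transcription went the other way. ENSRNOG00000073400 read 6.17, 7.41, 8.98 and 5.59 TPM in SOD1-WT and 23.9, 22.2, 19.3 and 17.4 TPM in SOD1-K123R. ENSRNOG00000070496 rose from 5.82 ± 1.20 to 13.7 ± 0.823 TPM. In both loci the groups were apart, with log2 fold changes of 1.44 (SE 0.15) and 1.13 (SE 0.13). The table lists both as long noncoding RNAs and pairs neither with a gene name, so whether they encode a protein was not tested.

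The 5 members of respiratory chain assembly and coenzyme Q synthesis had means of at most 5.28 TPM in SOD1-WT and fell in SOD1-K123R. Means of Tmem177, Dnajc30 and Lyrm7 were under 1 TPM in SOD1-K123R (0.54, 0.69 and 0.975 TPM). They passed the filter only through SOD1-WT, the group where they were high, so their shared direction partly follows from that filter. Tmem177, an inner-membrane protein that takes part in assembly of cytochrome oxidase, read 4.38, 4.10, 3.66 and 4.80 TPM in SOD1-WT and 0.46, 0.36, 0.56 and 0.78 TPM in SOD1-K123R. Its log2 fold change of -1.77 on the log2(TPM + 1) scale understates the change at this level, since the means differed 7.84-fold. Lyrm7, a chaperone of the Rieske iron-sulfur subunit of complex III, fell from 3.94 ± 0.531 to 0.975 ± 0.0954 TPM. Tmem126a, an assembly factor of complex I, fell from 5.28 ± 1.23 to 1.61 ± 0.469 TPM. Coq4, a protein of the coenzyme Q synthesis complex, had a log2 fold change of -1.28 (SE 0.13). Dnajc30, a J-domain protein annotated to regulation of ATP synthesis, had one of -1.30 (SE 0.12). The 5 genes spanned -1.77 to -1.26 on the log2(TPM + 1) scale, where the added 1 narrows differences at these levels. Their mean TPM differed from 3.27-fold (Tmem126a) to 7.84-fold (Tmem177). Subunits of ATP synthase from the role list were not among the genes analysed here.

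All 5 members of import, processing and fission fell, but Tomm40 and Mtfp1 came into this group from outside the import list. Timm22, Immp1l and Oma1, the members in that list, fell, and its 3 tested genes outside the members (Chchd10, Gfer and Chchd2) rose. Chchd2 turned to -0.16 after quantile normalization. Tomm40, the pore through which most precursors cross the outer membrane, read 89.4 to 114 TPM in SOD1-WT and 30.6 to 38.5 TPM in SOD1-K123R (log2 fold change -1.46, SE 0.10). Its annotation lists both membranes, and it is known as an outer-membrane protein. Timm22, the channel that inserts carrier proteins into the inner membrane, read 65.7, 56.8, 51.2 and 49.9 TPM against 22.6, 20.3, 21.1 and 22.5 TPM. For Timm22 the lowest SOD1-WT library was more than double the highest SOD1-K123R library. Immp1l, a subunit of the peptidase that trims proteins at the inner membrane, fell from 18.5 ± 3.37 to 7.43 ± 0.620 TPM. Oma1, a stress-activated protease that cleaves the fusion protein OPA1, fell from 5.64 ± 1.03 to 1.17 ± 0.160 TPM. Mtfp1, an inner-membrane protein that promotes fission, fell by 0.44 on the log2 scale and was near the filter. Its call ended after quantile normalization (log2 fold change -0.22, limma adjusted p = 0.186) and after median-of-ratios scaling (-0.20, adjusted p = 0.214).

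**Figure D2:**
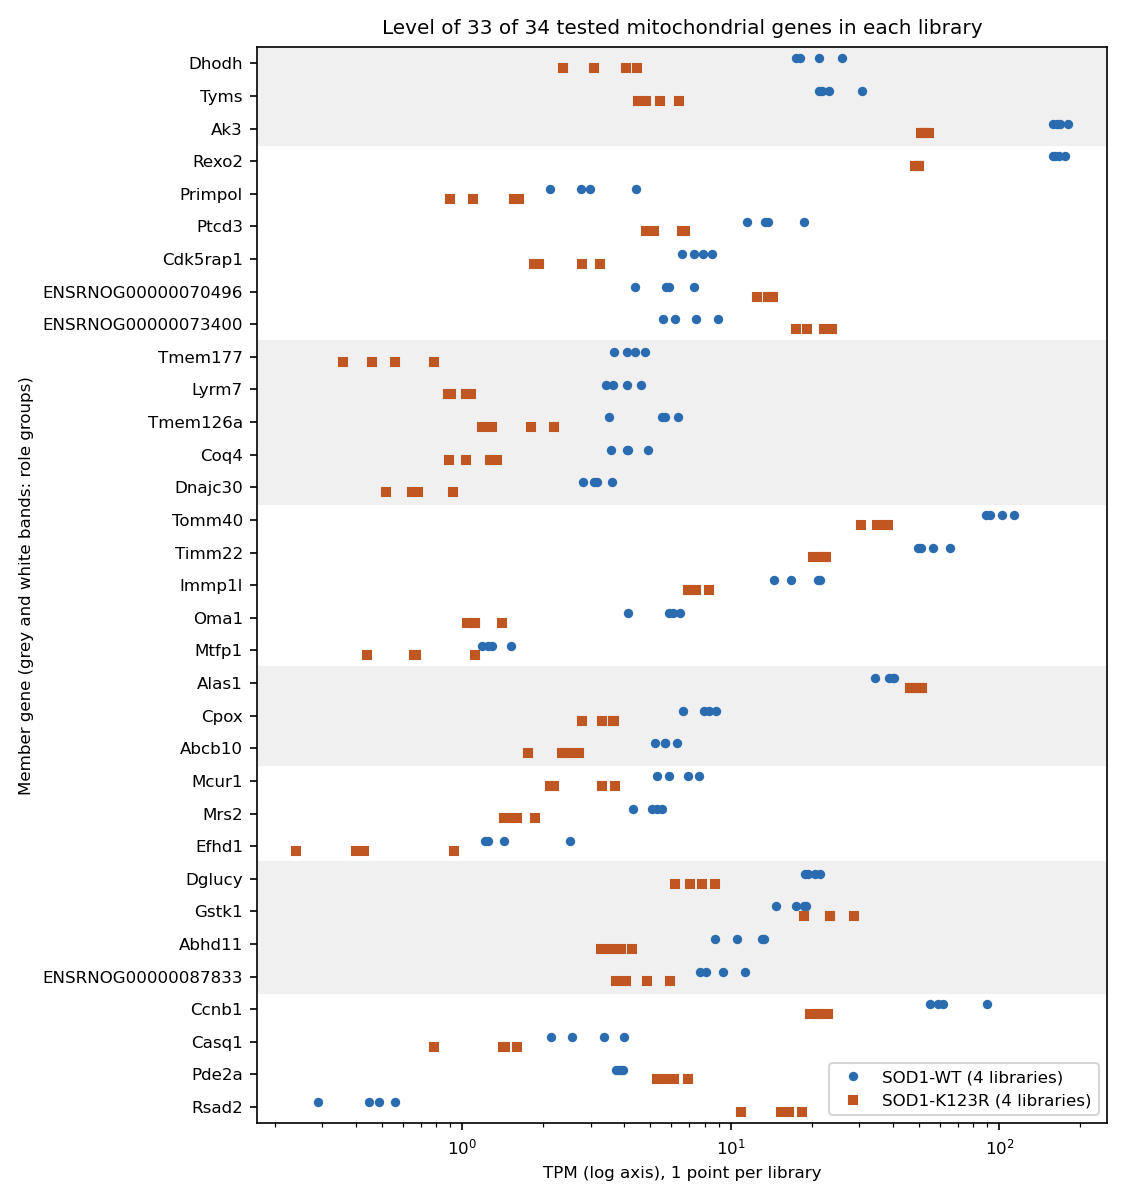
TPM of 33 of the 34 tested members in each library on a log axis, with SOD1-WT as circles and SOD1-K123R as squares, ordered by role in shaded bands. In 27 members the squares lie wholly left of the circles, in 5 wholly right, and in Gstk1 the groups overlap.

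Genes of heme synthesis were divided. Alas1, the rate-limiting enzyme that makes aminolevulinate in the matrix, read 40.6, 38.6, 34.5 and 40.0 TPM in SOD1-WT and 50.4, 46.6, 51.7 and 47.5 TPM in SOD1-K123R. The groups did not overlap, yet the rise was small (log2 fold change 0.35, SE 0.08, limma adjusted p = 0.00168) and was not called after quantile normalization (0.19, adjusted p = 0.0624). Cpox, which oxidises coproporphyrinogen late in the pathway, fell from 7.89 ± 0.925 to 3.35 ± 0.416 TPM. Abcb10, an inner-membrane transporter needed for heme formation in red-cell precursors, fell from 5.72 ± 0.451 to 2.33 ± 0.411 TPM.

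Promoters are shown for the 3 members whose window held a motif searched, 1 motif each, since one of them is Alas1, the member of the heme group that rose. Windows of 300 bases (250 before and 50 after the RefSeq gene start, GRCr8) were found by symbol for 30 of 34 members with a symbol, as 33 promoters. Motifs were the palindrome of NRF1, a factor of mitochondrial gene expression, as spelled by the capitals of the Alas1 line, TGACCTTG for the core of the site of estrogen-related receptors, and TGATGCAA for the core of the site of CHOP with ATF4. Both strands were read, and the NRF1 motif is its own reverse complement. Capitals mark the motif. The windows are chr8:115768593-115768892 on the minus strand for Alas1, chr4:105507933-105508232 on the minus strand for Ptcd3 and chr10:61751436-61751735 on the plus strand for Timm22.
Alas1: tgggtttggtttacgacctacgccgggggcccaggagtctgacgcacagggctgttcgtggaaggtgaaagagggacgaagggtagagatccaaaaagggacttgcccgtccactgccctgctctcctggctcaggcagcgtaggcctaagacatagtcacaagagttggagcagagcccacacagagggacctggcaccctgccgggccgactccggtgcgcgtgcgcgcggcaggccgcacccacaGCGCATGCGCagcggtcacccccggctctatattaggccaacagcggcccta
Ptcd3: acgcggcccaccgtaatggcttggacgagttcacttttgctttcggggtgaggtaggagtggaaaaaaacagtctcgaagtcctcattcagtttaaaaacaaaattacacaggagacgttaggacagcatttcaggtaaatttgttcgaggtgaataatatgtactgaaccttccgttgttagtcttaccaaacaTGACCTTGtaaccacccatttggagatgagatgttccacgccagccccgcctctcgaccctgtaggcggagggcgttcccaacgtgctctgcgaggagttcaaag
Timm22: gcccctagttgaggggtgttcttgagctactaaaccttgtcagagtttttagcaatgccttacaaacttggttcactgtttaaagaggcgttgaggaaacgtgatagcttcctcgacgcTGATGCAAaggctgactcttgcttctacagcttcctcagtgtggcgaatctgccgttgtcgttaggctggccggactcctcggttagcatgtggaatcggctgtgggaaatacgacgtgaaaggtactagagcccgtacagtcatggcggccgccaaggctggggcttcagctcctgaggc
The NRF1 motif of Alas1 starts at base 249 of its window, next to the annotated gene start. It was present in 0.852% of all 33469 promoters of the table and in 1.44% of the promoters of genes tested here. The receptor core, at base 196 in Ptcd3, was present in 1.52% of all promoters and in 1.19% of those of genes tested. The CHOP and ATF4 core, at base 120 in Timm22, was present in 0.795% and 0.467%. Each motif was thus matched in 1 of 33 member promoters, while Alas1 rose and Ptcd3 and Timm22 fell. A match is a description of the letters and not a shown binding site.

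All 3 members tied to calcium and magnesium fell, where 51.1% of all genes tested fell. Roles of Mrs2 and Efhd1 were assigned after the values were seen, so the uniform direction only describes the grouping chosen. Mrs2, the magnesium channel of the inner membrane, fell from 5.07 ± 0.531 to 1.60 ± 0.190 TPM. Mcur1, a regulator of the calcium uniporter, fell from 6.42 ± 1.03 to 2.83 ± 0.794 TPM. Efhd1, a calcium-binding protein of the inner membrane, had a log2 fold change of -0.79 at a mean near 1 TPM, where SOD1-WT replicate 4 stood apart at 2.52 TPM from the other libraries of its group (1.21 to 1.43 TPM).

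Enzymes of the matrix moved both ways. Gstk1, the matrix glutathione transferase, rose by 0.40 on the log2 scale (SE 0.13, limma adjusted p = 0.00969), the highest adjusted p of the members, and its groups overlapped. Abhd11, which protects the lipoylated oxoglutarate dehydrogenase complex, fell from 11.4 ± 2.18 to 3.76 ± 0.436 TPM. Dglucy, a D-glutamate cyclase, fell from 20.1 ± 1.21 to 7.43 ± 1.07 TPM. An unnamed locus with GO terms for lysine desuccinylase and demalonylase activity, ENSRNOG00000087833, fell from 9.08 ± 1.63 to 4.65 ± 0.967 TPM.

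Several members carry a matrix or inner-membrane term but are known mainly from elsewhere, and here the label is weak. Rsad2 read 0.45, 0.49, 0.29 and 0.56 TPM in SOD1-WT and 18.3, 16.5, 15.4 and 10.9 TPM in SOD1-K123R. No other tested member moved as far on the log2(TPM + 1) scale (log2 fold change 3.47, SE 0.15). With a SOD1-WT mean of 0.45 TPM, Rsad2 passed the filter only through SOD1-K123R, the group where it was high. Its direction thus partly follows from that filter, and the size depends on the 1 added to TPM. Pde2a, a phosphodiesterase of cyclic nucleotides, rose from 3.85 ± 0.0974 to 6.01 ± 0.694 TPM. Ccnb1, the mitotic cyclin B1, fell from 66.4 ± 15.7 to 21.2 ± 1.38 TPM. Casq1, the calcium store protein of muscle, had a log2 fold change of -0.79. Tyms and Ccnb1 are also genes of cell division, and the part of proliferation in the fall of the other members was not tested. Myoc and Dmd, which lay below the filter, also belong here. Without these 6 genes, Tomm40, Tyms and the unnamed loci, 22 of 25 tested members fell and 3 rose, with a median log2 fold change of -1.26.

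The 5 members below the filter were at or near 0 in at least 1 group. Myoc, which encodes myocilin, read 0.00 to 0.16 TPM in SOD1-WT and 1.28 to 1.74 TPM in SOD1-K123R. Dmd, which encodes dystrophin, read at most 0.18 TPM in any library, and Mpc1l, a paralog of a pyruvate carrier subunit, at most 0.84 TPM. The remaining pair were unnamed loci that read at most 0.50 TPM.

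**Figure D3:**
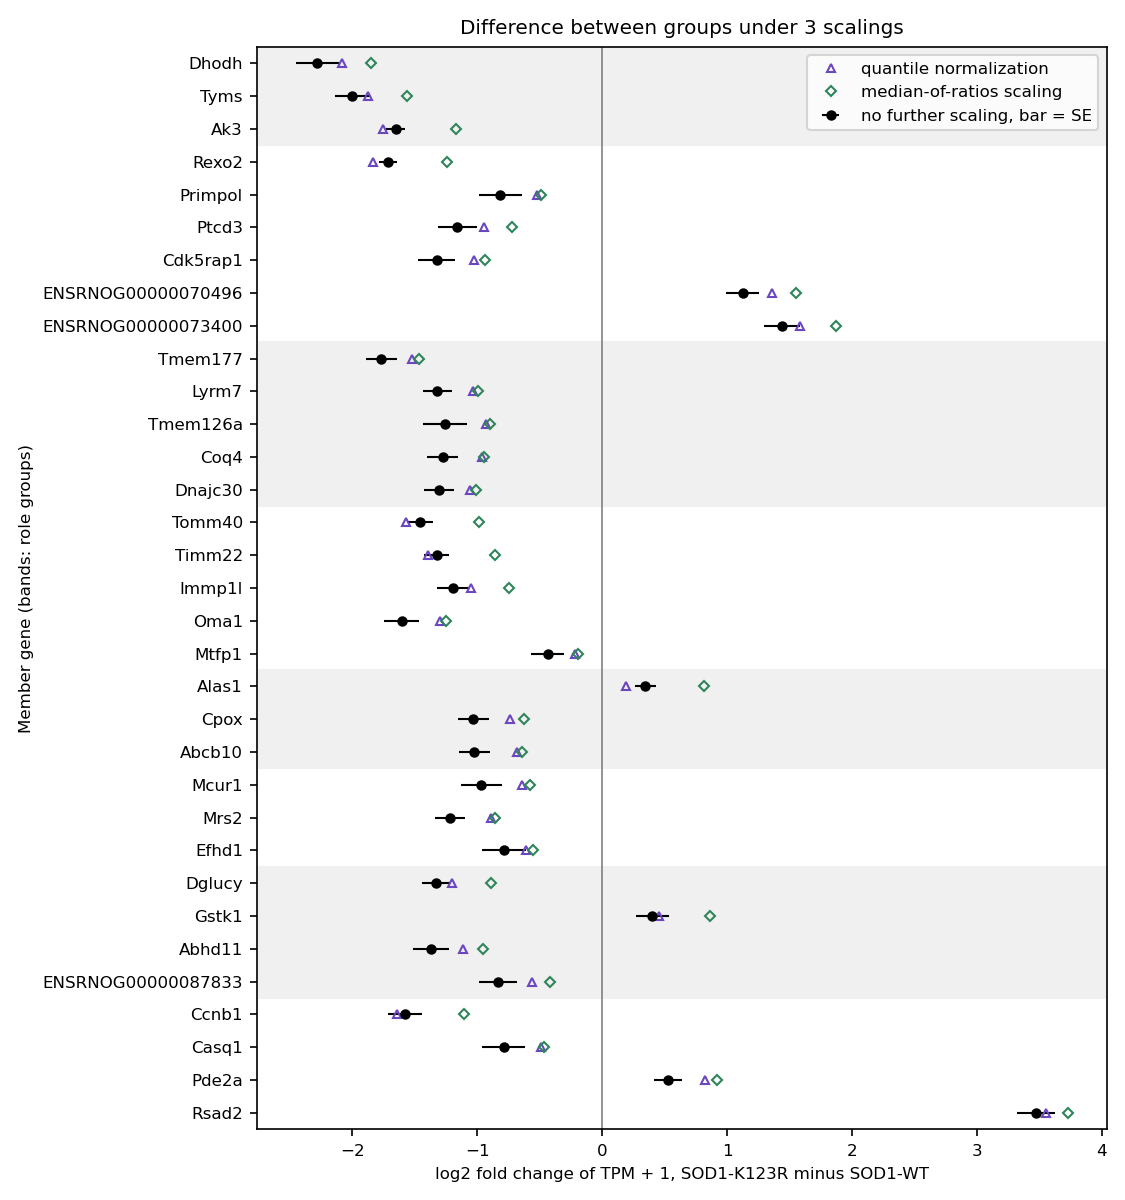
Log2 fold change of TPM + 1 (SOD1-K123R minus SOD1-WT) for 33 of the 34 tested members, with circles and SE bars for values with no further scaling, triangles for quantile normalization and diamonds for median-of-ratios scaling. Each member drawn keeps its side of 0 under these 3 scalings, with Rsad2 farthest right at 3.47 and Dhodh farthest left at -2.28.

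Under both scalings tried the tested members kept their direction, and the size of the differences changed. Relative to no further scaling, the median log2 fold change of all genes tested rose by 0.24 after quantile normalization and by 0.35 after median-of-ratios scaling. The members' median minus that of all genes was -0.72 without further scaling, -0.69 after quantile normalization and -0.66 after median-of-ratios scaling. It was wider at a mean of at least 5 TPM (-1.52), and ran from -0.94 (without SOD1-WT replicate 3) to -0.64 when 1 library was left out. Decreases counted 26 of 34 under each of these 2 scalings, and increases 6 and 7.

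Other mitochondrial genes were read from 15 role lists that hold 651 genes. Among the rows deposited, 69 of them were not members, and of 62 tested, 43 fell, 18 rose and 1, the cytochrome oxidase subunit gene Cox6a2 (log2 fold change 0.19, adjusted p = 0.485, limma), did not pass. Their median log2 fold change was -0.95. A wider set, the 173 tested genes with any other GO term that names mitochondria, had 89 that fell and 79 that rose, or 51.4% and 45.7%, close to the shares of all genes tested. The difference between these sets and the members was not tested, and 44 genes of the table are in both comparison sets.

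Genes of iron-sulfur cluster, heme and coenzyme Q synthesis that carried neither term fell in 6 of 6 cases, where 51.1% of all genes tested fell. Among them, Lyrm4, a partner of the cysteine desulfurase of cluster assembly, fell from 8.48 ± 0.389 to 2.30 ± 0.571 TPM. Pdss1, which starts the coenzyme Q side chain, fell from 4.23 ± 0.903 to 0.657 ± 0.301 TPM. Pdss1 and Iba57 (0.73 TPM in SOD1-K123R) passed the filter only through SOD1-WT, so their direction partly follows from that filter. Genes of other lists with a mean under 1 TPM in SOD1-K123R, such as Micu3 (0.65 TPM), share this limit. Respiratory chain assembly factors fell in 5 of 7 cases, such as Bcs1l, which inserts the Rieske protein (log2 fold change -1.73, SE 0.13). Cox11 (0.89) and Pet117 (0.68), which act in cytochrome oxidase assembly, rose. In fatty acid and lipid metabolism 7 of 8 fell and Acot2, a matrix thioesterase, rose from 48.8 ± 4.33 to 125 ± 12.1 TPM. The call for Oxct1, which uses ketone bodies, ended after median-of-ratios scaling (-0.22, limma adjusted p = 0.0629).

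Tricarboxylic acid cycle and pyruvate genes gave 3 tested cases outside the members. Idh3a, a subunit of isocitrate dehydrogenase, fell from 54.8 ± 5.72 to 23.8 ± 1.98 TPM, and D2hgdh, which removes D-2-hydroxyglutarate, fell by 1.68 on the log2 scale. Pdp1, the phosphatase that activates pyruvate dehydrogenase, rose from 7.55 ± 1.09 to 18.2 ± 1.78 TPM. In the amino acid list 5 of 5 fell, one of them Cdsn, a skin adhesion protein that does not belong to amino acid metabolism. In the list of one-carbon, nucleotide and NAD metabolism 6 of 8 fell, with Aldh1l2, the mitochondrial formyltetrahydrofolate dehydrogenase, at a log2 fold change of -1.90, and Sirt4 (1.17) and Nudt9 (0.50) rose.

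Mitochondrial DNA maintenance gave 4 decreases in 5 cases, among them Tfb1m, an rRNA methyltransferase (log2 fold change -1.14), and Mterf2 rose by 0.42 although its groups overlapped. For tRNA and translation factors 4 of 6 fell, and Alkbh1 (1.23) and Trit1 (1.16), which modify tRNAs, rose. The call for Mtrf1, a release factor, ended after median-of-ratios scaling (-0.27, limma adjusted p = 0.0577). Both tested genes of the calcium and ion channel list fell, although Tmem175 is known mainly as a lysosomal channel.

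Outside the members, increases prevailed in the lists of cell death and of import proteins, where 44.6% of all genes tested rose. The members in these lists (Timm22, Immp1l, Oma1 and Mtfp1) fell, so the import list as a whole went both ways. Quality control and apoptosis genes rose in 5 of 7 cases, with Bbc3, which encodes PUMA, at a log2 fold change of 1.49 and Bnip3l, a mitophagy receptor, at -1.09. All 3 tested genes of the import and membrane organisation list outside the members rose, namely Chchd10 (2.57), Gfer (0.58) and Chchd2 (0.31). After quantile normalization Chchd2 turned to -0.16 (limma adjusted p = 0.197) and Bid, of the apoptosis list, was not called (0.11, adjusted p = 0.227). The 1 tested gene of the redox list outside the members, Bcl2l1, is an inhibitor of cell death that does not belong to redox enzymes. Bcl2l1 rose by 1.95 on the log2 scale, and Gstk1, the member in that list, by 0.40.

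Regulators of mitochondrial gene expression were few in the table. Of 19 in the list 3 were there, and Atf4, the transcription factor of the integrated stress response, rose from 419.8 ± 10.2 to 684 ± 27.2 TPM. Ppargc1b, a coactivator of mitochondrial biogenesis, read 0.0625 ± 0.0695 and 0.660 ± 0.0860 TPM and lay below the filter. Prkaa2, also below the filter, went the other way, at 0.1225 ± 0.0222 and 0.020 ± 0.0231 TPM. Of the outer membrane and fission list, Hk2, a hexokinase that can dock on mitochondria, rose by 2.12 on the log2 scale, Tomm40 fell. Maob, a monoamine oxidase, fell by 0.69, and median-of-ratios scaling ended its call (-0.27, limma adjusted p = 0.165).

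**Figure D4:**
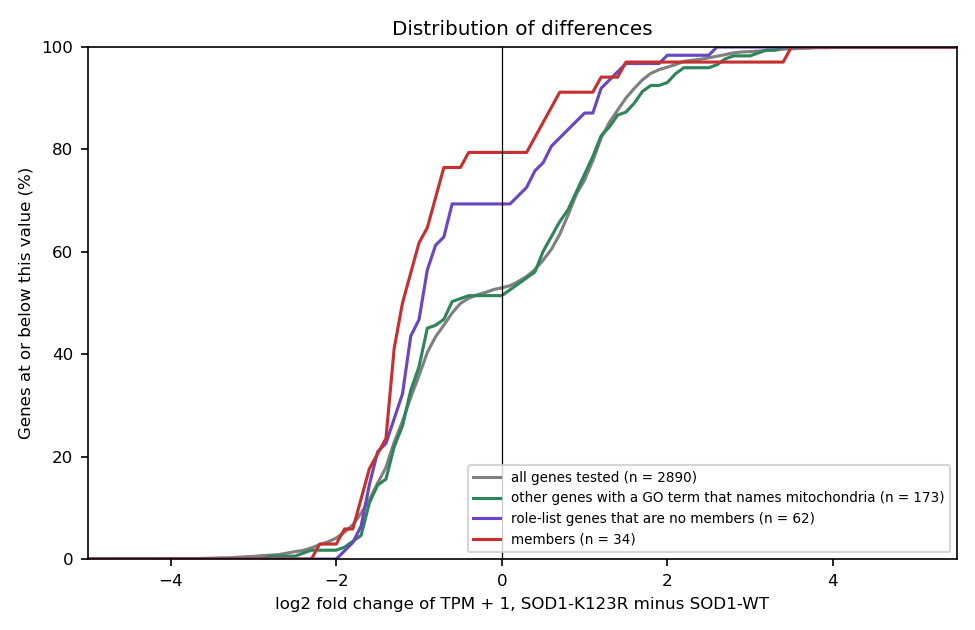
Share of genes (%) at or below each log2 fold change of TPM + 1 (SOD1-K123R minus SOD1-WT), for the 34 members, the 62 role-list genes that are no members, 173 other genes with a mitochondrial GO term and all 2890 genes tested. At 0 the members' line stands at 79.4% and that of the role-list genes at 69.4%, while the wider GO set at 51.4% lies near all genes tested.

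Libraries of a group correlated across genes at 0.981 to 0.994 and libraries of different groups at 0.788 to 0.818, and no pair of columns was identical. The table's columns summed to 18.8% to 19.9% of the full TPM total in SOD1-WT and 23.5% to 24.3% in SOD1-K123R. Of 17 markers of nucleus pulposus cells 7 were in the table, with a summed 20.9 to 24.3 TPM in SOD1-WT and 33.4 to 52.1 TPM in SOD1-K123R. Cd24 made up most of this gap (means of 10.1 and 31.2 TPM), and the other 6 summed to 12.3 to 13.4 TPM and 10.5 to 14.9 TPM. Among these the markers differed in direction, with Cdh2 at means of 9.43 and 2.96 TPM and Sox9 at 0.40 and 3.19 TPM. Col2a1 was at 0 in SOD1-WT and Acan at a mean of 1.55 TPM, so 2 defining matrix genes were at or near 0. Tendon and annulus markers in the table (2 of 5) summed to 34.6 to 55.2 TPM and 17.0 to 21.7 TPM, and the leukocyte marker Cd68 (1 of 5) read 5.44 to 7.94 and 22.8 to 29.8 TPM. Endothelial and muscle markers (1 of 4 each) stayed at or below 1.51 TPM, and erythroid markers were not analysed here. The part of these markers in the result was not tested.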

How the data were processed

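Gene expression was measured by RNA-seq (paired-end, Illumina NovaSeq, TRIzol RNA, per the labels' protocols) in 8 libraries, grouped by their titles. Per the file headers, the authors deposited 1 gene-level table of TPM with annotation from GO and KEGG, and its name gives RSEM. DESeq2 is named in the submitters' processing notes with no stated role. Not given in the sources used here are the aligner, genome build, annotation release and choice of rows. TPM keep no counts, so sequencing depth could not be recovered, nor any counting interval.

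Genes averaging at least 1 TPM were tested on log2(TPM + 1) with limma 3.58.1 (lmFit, eBayes with a trend of variance on mean; R 4.3.3), two-sided, adjusted over all 2890 genes. Group values are means ± SD over 4 libraries, and errors of fold changes are moderated standard errors (SE). The script was checked on simulated data in which a small part of the genes changed. That check does not cover data in which nearly every gene passes, as here. Reads of near-identical copies or overlapping genes may be split, and how strand was handled is not stated.

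The members and lists were chosen with earlier results of these data known. Named were Dhodh, up to 4 members of each role list by adjusted p, the 6 largest changes in each direction (groups apart, at least 5 TPM in the higher group), and up to 3 genes of each list outside the rule. Every other member or list gene was named after its values were seen, and 19 members were in no role list, so their role was assigned then. Promoter sequences are from RefSeq (GRCr8), matched by symbol; promoters of 4 members and of the unnamed loci were not used here. Alternatives were another pseudocount, other filters, quantile and median-of-ratios scaling, a replicate block, no trend, other memberships and leaving out each library. Single-gene results left out of the text and figures stay in the counts.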

Additional observations from a re-analysis of the deposited data

Results flagged for a closer look

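Of 78 groups of 4 libraries (39 members in each of 2 groups), 2 had a library far from the rest, where chance flags about 1 in 20. For Efhd1, SOD1-WT replicate 4 was high at 2.52 TPM, with its fellow libraries at 1.21 to 1.43 TPM. For Mpc1l, the same library read 0.29 TPM and the other SOD1-WT libraries were listed at 0.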

How the results depend on the processing

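Of the 34 tested members none changed direction under the alternatives run, and calls were lost for Mtfp1 (quantile normalization and median-of-ratios scaling) and Alas1 (quantile normalization) as given above. The members' median log2 fold change of -1.21 became -1.40 with a pseudocount of 0.1, -1.03 with no filter, -1.26 at a mean of at least 5 TPM, -0.94 after quantile normalization and -0.80 after median-of-ratios scaling. It was -1.25 to -1.18 when 1 library was left out. At a mean of at least 5 TPM 14 members fell and 6 rose, of 20 tested, and 897 genes fell in all, since fewer genes were tested. There 948 genes rose, more than fell, and the median of all genes was 0.27. By term, 13 of 18 matrix members fell (median -1.24), and among inner-membrane members 15 of 17 fell and 2 rose. In memberships chosen after seeing the data, the median was -1.16 with exact terms only and -1.26 without the unnamed loci, and also -1.26 without these, Tomm40, Tyms and the genes known mainly from other places, where 3 rose.

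Leaving out 1 library gave 25 to 27 members that fell and 7 that rose, since without any 1 SOD1-WT library Mtfp1 lay below the filter, and without replicate 3 or 4 so did Efhd1. Equal replicate numbers were not treated as pairs, because deviations of same-numbered libraries correlated at -0.350 to 0.0536 and only number 4 correlated best with its own. With a replicate block 27 members fell and 7 rose, and 1461 genes fell and 1282 rose in all. Rows that cover part of the transcriptome, unknown depth and 4 libraries a group limit the precision.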
